A study of Homo sapiens with 8 samples.

Results

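The 32 genes described here are chaperones and folding enzymes of the endoplasmic reticulum (ER), components of its degradation pathway, and sensors of the unfolded protein response. They were taken by gene name from the authors' deposited table of translation efficiency, where each of the 32 had 1 row of the 12109 in all. The table compares human hepatic stellate cells in which LARP6, an RNA-binding protein of the La-related family, was silenced (genotype label LARP6 kd, treated with dsiLARP6) with cells given a control silencing RNA (genotype label WT, dsi-control). Each arm had 2 ribosome profiling and 2 RNA-seq libraries, 8 in total. The labels call them a cell line, grown in serum, and no TGF-beta treatment is named for these libraries. Stellate cells are the liver cells that deposit scar collagen when activated. Translation efficiency is the number of ribosome-protected fragments relative to RNA for the same transcript. In the authors' deposited table it is scaled so that the typical row lies near 0 on the log2 scale.

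Values per library are not in the table, so replicate spread, sequencing depth and RNA abundance cannot be given, and the authors' p-values carry the error of each value. For the same reason the depletion of LARP6 could not be checked, since the efficiency of LARP6 itself (log2 change 0.07, adjusted p = 0.981 in the authors' deposited table) is a ratio. Of the stellate cell markers listed, 15 of 18 had a row, against 2 of 12 hepatocyte, 2 of 12 endothelial, 2 of 12 leukocyte and Kupffer cell, and 3 of 8 biliary and epithelial markers. Of these 15 stellate cell markers, the authors' deposited table lists 1 as higher and 8 as lower at an adjusted p of 0.05 (median log2 change −0.42), a threshold that 2.20% of all rows passed. The log2 change in the authors' deposited table was −1.11 for the smooth muscle actin gene ACTA2 (adjusted p = 0.000185) and −0.82 for the collagen gene COL3A1 (adjusted p = 3.2e-23). It was −0.68 for LUM and −0.66 for DCN, which encode matrix proteoglycans. The desmin gene DES, the retinol esterifying enzyme LRAT and RGS5 were the stellate cell markers without a row. Among the genes without a row were ALB for hepatocytes, PECAM1 for endothelium, PTPRC for leukocytes and EPCAM for epithelium.

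Secreted and membrane proteins enter the ER as they are made. There the Hsp70 chaperone HSPA5 (BiP) and its J-domain partners hold them unfolded, protein disulfide isomerases pair their cysteines, and the lectins calnexin and calreticulin retain glycoproteins until they fold. Chains that fail are passed back to the cytosol and destroyed. When unfolded chains accumulate, the sensors ATF6, ERN1 (IRE1) and EIF2AK3 (PERK) raise the output of folding and degradation genes and slow general translation. Collagen-secreting cells depend on this machinery for procollagen.

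After LARP6 knockdown, 1 of the 32 genes rose and 0 fell at an adjusted p of 0.05, while 2.20% of all rows in the authors' deposited table passed (1.07% higher and 1.12% lower). The one that rose was SDF2L1, a partner of the HSPA5 chaperone cycle. That is 3.12% of the 32 genes, near the background. The libraries are bulk, and efficiency is a ratio given without the RNA abundance. Whether footprints or RNA changed for SDF2L1, and in which cells, therefore cannot be told. At an unadjusted p under 0.05, 3 of the 32 (9.38%) passed in the authors' deposited table, 1 higher and 2 lower, against 10.3% of all rows. The lower pair was HERPUD1 and ATF6, and neither passed the adjusted threshold.

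Most of these genes had small log2 changes. In the authors' deposited table their median log2 change was 0.02, against 0.02 over all rows, with 17 above 0 and 15 below. The interquartile range was 0.39 for the 32 genes and 0.65 for all rows of the authors' deposited table. A log2 change of under 0.5 in either direction was listed for 28 of the 32 (87.5%), against 66.7% of all rows and 68.6% of protein-coding rows. Other ER genes were alike in this: for the 141 genes of the 4 other ER lists described below, the share was 85.8% and the interquartile range 0.43. The table gives no abundance, so the spread was not set beside that of rows of similar abundance. The 2 estimates that the authors' deposited table lists for each row differed by at most 0.02 for these genes.

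**Figure D1:**
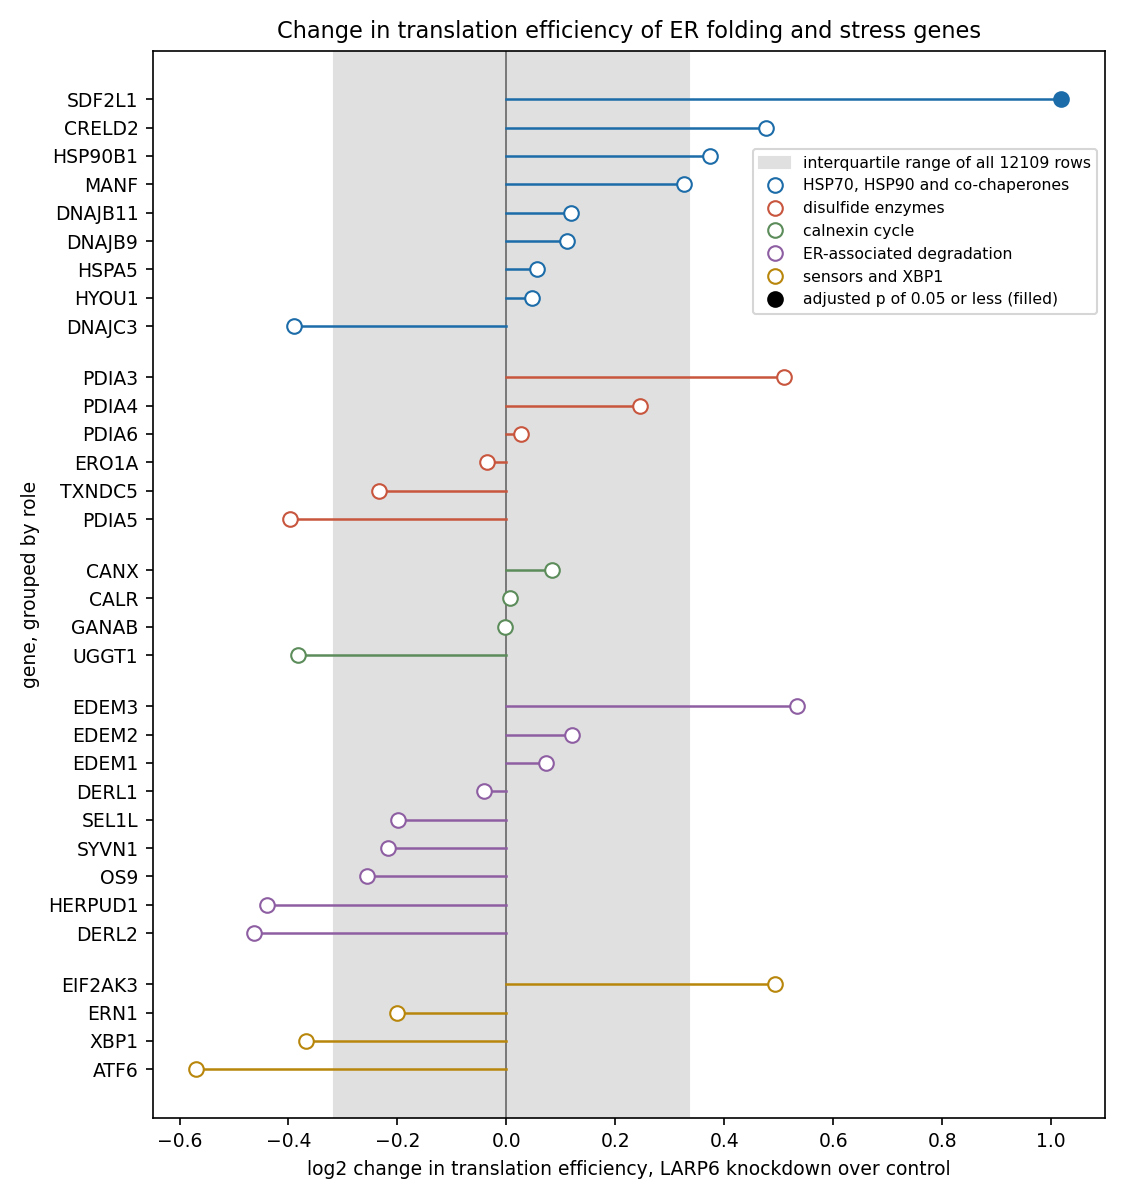
Log2 change in translation efficiency of the 32 genes, LARP6 knockdown over control, grouped by role. Each point is 1 row of the authors' deposited table, filled where the adjusted p was 0.05 or less; the grey band spans the interquartile range of all 12109 rows, and SDF2L1 is the single filled point, at 1.02.

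Among the Hsp70 and Hsp90 chaperones and their partners, SDF2L1 stood highest. SDF2L1 is a small soluble protein that works with J-domain co-chaperones of HSPA5. Its transcript (chromosome 22, 21642261 to 21644298, GRCh38) has 3 exons and 865 bases, the shortest of the 31 transcripts that could be matched to the annotation, and the highest GC content of them, 65.5%. SDF2L1 overlaps no other annotated gene, whereas 23 of the 32 genes overlap at least 1, and whether counting used strand is not stated. The log2 efficiency of SDF2L1 was 1.23 in knockdown cells, in the authors' deposited table, and the derived value was 0.21 in control cells. These levels lie at percentiles 87.9 and 57.9 of all rows. The change of 1.02 on the log2 scale, or 2.03-fold higher (p = 0.000989, adjusted p = 0.0459, the authors' deposited table), was close to the threshold and did not pass an adjusted p of 0.01.

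The other chaperones of this group had log2 changes between −0.39 and 0.48, and 0 of these 8 passed. In all, 8 of the 9 lay above 0 (88.9%, against 50.8% of all rows), with a median of 0.12 in the authors' deposited table. Of the 37 cytosolic heat shock proteins and chaperonins described below, 73.0% also lay above 0, with a median of 0.25. CRELD2 and MANF are secreted stress-inducible proteins of the ER. In the authors' deposited table CRELD2 had a log2 change of 0.48 (adjusted p = 0.730) and MANF one of 0.33 (adjusted p = 0.787). HSP90B1 (GRP94), the ER form of Hsp90, stood at 0.37 in log2 units (adjusted p = 0.594, the authors' deposited table). HSPA5 itself stood at 0.06 (adjusted p = 0.980, the authors' deposited table). The values of the J-domain co-chaperones DNAJB11 and DNAJB9 were 0.12 and 0.11, and that of HYOU1, the exchange factor that resets HSPA5, was 0.05. The exception below 0 was DNAJC3, a J-domain protein first described as an inhibitor of eIF2 alpha kinases, at −0.39 (adjusted p = 0.682) in the authors' deposited table. DNAJC3 had a log2 efficiency of 0.28 in knockdown cells and a derived 0.67 in control cells.

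Disulfide enzymes lay on both sides of 0, with 3 of 6 above 0, a median of −0.005 and 0 called in the authors' deposited table (0 also at an unadjusted p under 0.05). PDIA3 (ERp57), which acts on glycoproteins held by the lectins, had the highest log2 change of the group in the authors' deposited table, 0.51, but its adjusted p was 0.864. The multi-domain isomerase PDIA4 (0.24) and PDIA6 (0.03), an isomerase that also binds HSPA5, were closer to 0. On the other side lay PDIA5 at −0.40 (adjusted p = 0.864), the thioredoxin-domain protein TXNDC5 at −0.23 (adjusted p = 0.757) and ERO1A, the oxidase that recharges the isomerases, at −0.04, all in the authors' deposited table.

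The calnexin cycle had the smallest median absolute log2 change of the 5 groups, 0.04. The membrane lectin CANX, the soluble lectin CALR and the catalytic subunit of glucosidase II, GANAB, had log2 changes of 0.08, 0.006 and −0.003 in the authors' deposited table, with adjusted p-values of 0.935, 0.994 and 0.997. CALR had a log2 efficiency of 0.398 in knockdown cells and a derived 0.392 in control cells. UGGT1, the enzyme that re-tags misfolded glycoproteins for another round, was the exception at −0.38 (adjusted p = 0.817, the authors' deposited table). None of the 4 passed, at an unadjusted p under 0.05 either.

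In ER-associated degradation, 6 of 9 genes lay below 0, and the authors' deposited table gives them a median log2 change of −0.20; 0 were called and 1 had an unadjusted p under 0.05. That one was HERPUD1, a stress-inducible membrane protein of the retrotranslocation complex (chromosome 16, 56932048 to 56944863). Its log2 efficiency was 0.97 in knockdown cells and a derived 1.41 in control cells, a change of −0.44 (p = 0.0114, adjusted p = 0.235, the authors' deposited table). The ubiquitin ligase and the partners given next also lay below 0, without a call. The ligase SYVN1 (HRD1) stood at −0.22, its partner SEL1L at −0.20 and the lectin OS9 at −0.26, with adjusted p-values of 0.906, 0.872 and 0.651 in the authors' deposited table. The derlins, membrane proteins of the same route, had values of −0.46 for DERL2 and −0.04 for DERL1. Of the 32 other degradation genes described below, however, 62.5% lay above 0 in the authors' deposited table.

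The 3 mannosidase-like EDEM proteins, which mark glycoproteins for disposal, lay above 0. EDEM3 had a log2 change of 0.53, and its unadjusted p of 0.061 became 0.533 after adjustment in the authors' deposited table. EDEM3 had a log2 efficiency of 0.34 in knockdown cells and a derived −0.19 in control cells. EDEM2 and EDEM1 stood at 0.12 and 0.07, with adjusted p-values of 0.971 and 0.981 in the authors' deposited table. Whether the EDEM genes differed from the other degradation genes was not tested.

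The 3 sensors did not share a direction. ATF6, a membrane-bound transcription factor released by cleavage in the Golgi (chromosome 1, 161766294 to 161964070), had the lowest log2 change of the 32 genes. It was −0.57 in the authors' deposited table (p = 0.0401, adjusted p = 0.436), from a log2 efficiency of −0.13 in knockdown cells and a derived 0.44 in control cells. ERN1, the kinase and endoribonuclease IRE1, stood at −0.20 (adjusted p = 0.963, the authors' deposited table). EIF2AK3, the kinase PERK that phosphorylates eIF2 alpha, stood at 0.49 (adjusted p = 0.901, the authors' deposited table). With an unadjusted p of 0.349, that value was larger in size than the change of HERPUD1 but less certain.

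XBP1 is the transcription factor whose message ERN1 cuts and re-joins outside the nucleus, which shifts the reading frame to the active form. The XBP1 row (chromosome 22, 28795175 to 28800524) had a log2 change of −0.37 (p = 0.0621, adjusted p = 0.538, the authors' deposited table), with a log2 efficiency of −0.01 in knockdown cells and a derived 0.35 in control cells. The identifier of that row belongs to a spliced form, a GENCODE transcript that consists of its coding sequence alone, 1131 bases or 376 codons before the stop, and lacks the 26 bases that ERN1 removes. The unspliced GENCODE transcript of 1850 bases retains them. The first sequence is the unspliced stretch with those bases in capitals, located as the interval between a pair of CNGCAGC sites, and the second is the joined stretch of the spliced transcript.
XBP1 unspliced: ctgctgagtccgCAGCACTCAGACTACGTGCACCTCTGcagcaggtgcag
XBP1 spliced: ctgctgagtccgcagcaggtgcag
Of the 1104 windows of 28 bases in the spliced transcript, 21 are not in the unspliced one. The remaining windows are common to both, so a read the length of a footprint can be assigned to the spliced form only across the junction. The XBP1 value is therefore given as a value of the gene, not of the spliced message.

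Levels of translation efficiency spread much more widely than the changes. In the authors' deposited table the knockdown log2 efficiency ran from 1.90 for MANF to −2.82 for PDIA3, with a median of 0.35, against 0.008 over all rows. The highest after MANF were DNAJB11 (1.55), DNAJB9 (1.39), SDF2L1 (1.23), PDIA6 (1.05) and EDEM2 (1.03). The derived control levels ran from 1.58 for MANF to −3.33 for PDIA3, with a median of 0.39. No error is given for a level, so neighbours in this order cannot be called different.

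**Figure D2:**
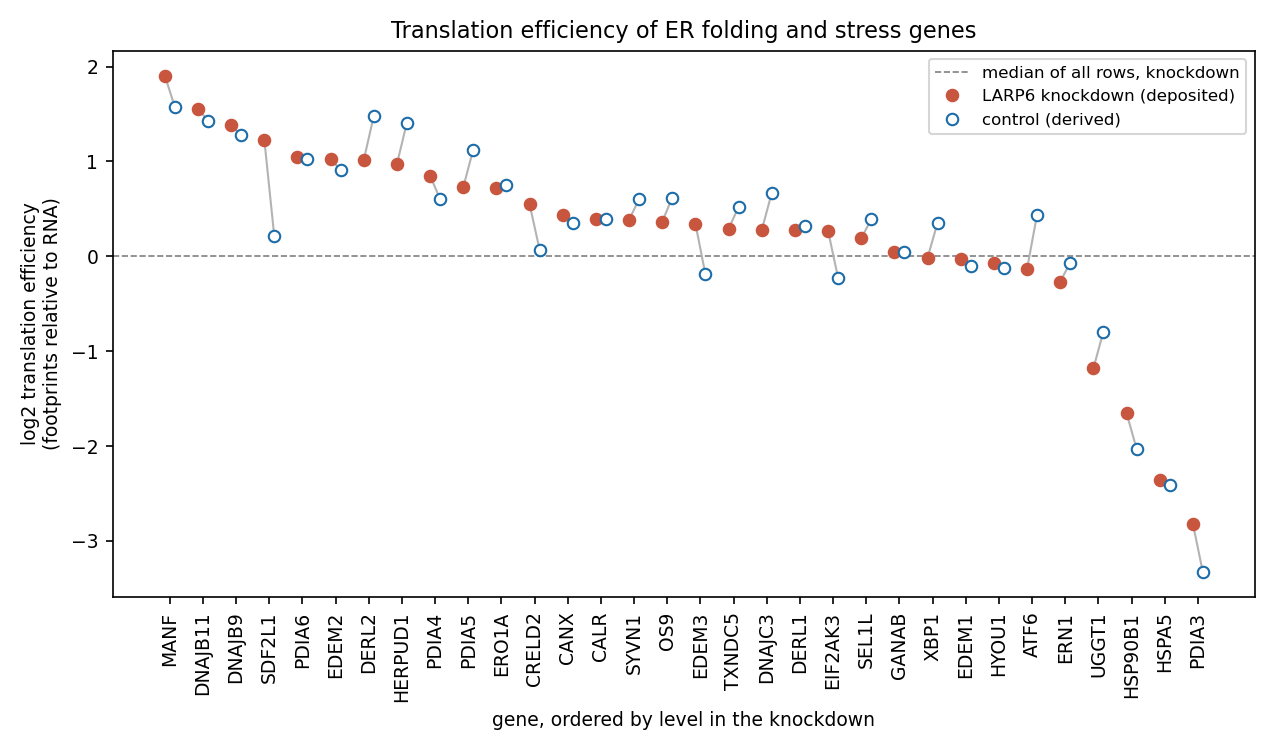
Log2 translation efficiency (footprints relative to RNA) of each of the 32 genes in LARP6 knockdown cells (filled, deposited) and in control cells (open, derived as the knockdown level minus the second estimate of the change). The dashed line is the median of all rows in the knockdown; SDF2L1 shows the widest gap with the knockdown above, and PDIA3, HSPA5 and HSP90B1 lie at the bottom at −2.82, −2.35 and −1.65.

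PDIA3, HSPA5 and HSP90B1, 3 central folding proteins of the ER, had the lowest levels of the 32. Their knockdown levels lie at percentiles 1.90, 3.13 and 7.61 of all rows, and the derived control levels of −3.33, −2.41 and −2.03 at percentiles 1.10, 3.11 and 4.84. UGGT1 came next, with a log2 efficiency of −1.18 in knockdown cells in the authors' deposited table and a derived −0.80 in control cells. The other 28 had knockdown levels of at least −0.27, the value of ERN1.

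The same 3 genes were those whose coding sequence recurs elsewhere in the annotation. Of the 28-base windows of the coding sequence, about the length of a footprint, 66.4% for PDIA3, 35.9% for HSPA5 and 31.4% for HSP90B1 were found in transcripts of another annotated locus. DERL2 followed with 5.48%, and the rest of the 31 matched transcripts were under 1%, 22 of them at 0. UGGT1 was among those at 0. For PDIA3, HSPA5 and HSP90B1 the loci that hold these windows are pseudogenes. PDIA3P1 on chromosome 1 shares 931 windows with PDIA3, with an identical run of up to 197 bases. AL354702.1 on chromosome 1 shares 491 with HSPA5, with a run of up to 112 bases, and AC105250.1 on chromosome 4 shares 343. HSP90B2P on chromosome 15 shares 576 with HSP90B1, with a run of up to 91 bases, and HSP90B3P on chromosome 1 shares 248. How reads that map to several places were counted was not given in the sources used here. The values of these 3 genes are therefore uncertain.

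As an example, 60 bases of each coding sequence are set above the same stretch of the pseudogene with most shared windows. Bases that differ are in capitals. Each stretch was placed so that the longest identical run starts in its middle. Its later part is thus identical by choice, and the stretch does not measure the likeness of the whole coding sequence.
PDIA3: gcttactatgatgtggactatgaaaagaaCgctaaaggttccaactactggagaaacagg
PDIA3P1: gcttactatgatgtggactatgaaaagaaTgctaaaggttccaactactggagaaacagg
HSPA5: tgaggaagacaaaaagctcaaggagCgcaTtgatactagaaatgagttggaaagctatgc
AL354702.1: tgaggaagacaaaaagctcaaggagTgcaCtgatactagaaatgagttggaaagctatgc
HSP90B1: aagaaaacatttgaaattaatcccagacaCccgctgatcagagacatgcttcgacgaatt
HSP90B2P: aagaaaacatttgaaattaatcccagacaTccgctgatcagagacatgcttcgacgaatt
The PDIA3 stretch covers coding bases 787 to 846, that of HSPA5 bases 1647 to 1706 and that of HSP90B1 bases 2044 to 2103, counted from the A of the start codon. They differ from their copies at 1, 2 and 1 of the 60 bases.

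Across the table, rows with more shared sequence had lower levels. The median knockdown log2 efficiency was 0.15 for the 7246 protein-coding rows without a shared window and −0.23 for the 2069 with up to 10%. It was −0.74 for the 704 rows over 10% and up to 30%, −1.51 for the 317 over 30% and up to 50%, and −1.93 for the 223 above that. The derived control medians followed the same order, from 0.15 to −2.03. HSPA5 at −2.35 and HSP90B1 at −1.65 lay within the middle 80% of their class, which spanned −3.21 to 0.05, and PDIA3 at −2.82 within that of its class, which spanned −4.17 to 0.28. The part of shared sequence in these levels was not tested. The log2 change followed no such order. From the least to the most shared sequence, its medians in the 5 classes were 0.008, 0, 0.09, 0.13 and 0. Of their rows, 2.29%, 2.42%, 2.41%, 2.84% and 1.35% were called in the authors' deposited table. Whether the medians differed was not tested. Without the 3 genes, the median log2 change of the remaining 29 was −0.003 and SDF2L1 was still the one called.

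**Figure D3:**
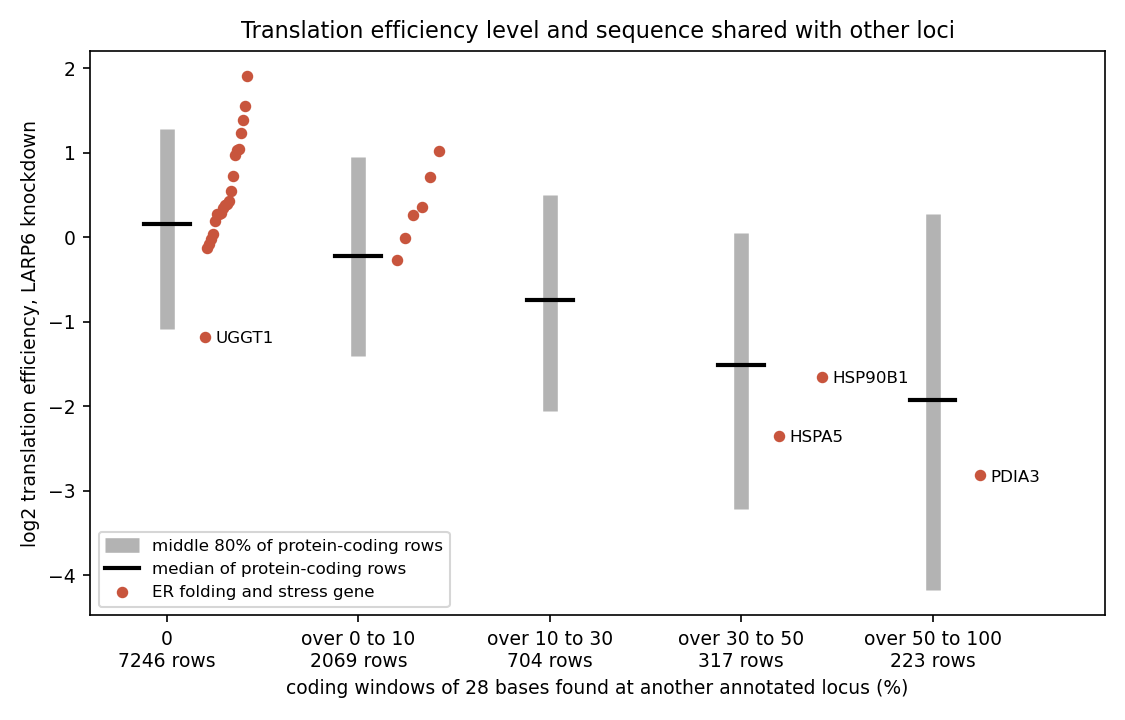
Log2 translation efficiency in LARP6 knockdown cells by the share of 28-base coding windows found at another annotated locus, in 5 classes of protein-coding rows. Grey bars span the middle 80% of rows, black lines their median, and points are the 31 matched ER folding and stress genes; PDIA3, HSPA5 and HSP90B1 are the only 3 of them above 10%.

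The matched transcripts had few unusual features. Their coding sequences had a median length of 1560 bases, against 1389 for all protein-coding rows, and their GC content a median of 46.4%, against 49.3%. The 5′ leaders had a median of 121 bases, against 190. An ATG upstream of the start codon occurred in the leader of 9 of 30 (30%), against 50% of protein-coding rows. The most were in EIF2AK3 with 5 and in DNAJB9 and MANF with 4 each. These 3 had log2 changes of 0.49, 0.11 and 0.33 in the authors' deposited table, and none was called.

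The start codon context is shown for the called gene, the genes with the lowest log2 change and the highest and lowest levels, and HERPUD1, which had the lowest unadjusted p of those not called, with 9 bases of leader in lower case and the ATG with the base after it in capitals.
SDF2L1: gccggggcgATGT
ATF6: acttgtgaaATGG
MANF: aggaggaggATGA
PDIA3: ctcgccgccATGC
HERPUD1: gccgccgccATGG
A purine 3 bases before the ATG was present in 28 of 30 genes (93.3%), against 87.0% of protein-coding rows. A G directly after the ATG was present in 15 of 30 (50%), against 53.7%. HERPUD1 and ATF6 have both features, whereas SDF2L1, MANF and PDIA3 have the purine alone.

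Some of these genes carry known stress response elements in their promoters. The ER stress response element (ERSE), CCAAT and CCACG with 9 bases between them, is the site bound by cleaved ATF6 with the factor NF-Y. Searched on both strands of RefSeq promoter windows (GRCh38.p14, from upstream of each gene start to shortly after it), it was present in 7 of the 30 genes with a window (23.3%), against 25 of 27305 genes (0.0916%). The shorter ERSE-II, ATTGG and CCACG with 1 base between them, was present in 3 of 30 (10.0%), against 19 genes in all (0.0696%). The XBP1-type element TGACGTGG was present in 2 of 30 (6.67%), namely TXNDC5 and HYOU1, against 0.927% of genes; in HYOU1 it overlaps an ERSE-II. PDIA3 and DERL1 had no window in the table used. The counts over all genes include the genes described here, which were chosen for known roles in ER folding and stress. The shares are therefore a description, not a test.

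The sites are printed for the genes that carry them, with 6 bases on each side and the fixed letters in capitals, to be read against the values above.
HSPA5: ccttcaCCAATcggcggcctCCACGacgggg
HSP90B1: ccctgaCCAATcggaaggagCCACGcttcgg
HSP90B1: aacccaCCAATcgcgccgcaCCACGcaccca
CALR: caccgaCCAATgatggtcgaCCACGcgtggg
CANX: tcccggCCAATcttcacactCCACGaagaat
CRELD2: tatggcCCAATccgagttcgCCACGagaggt
PDIA6: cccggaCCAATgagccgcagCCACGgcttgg
XBP1: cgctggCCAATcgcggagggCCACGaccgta
SDF2L1: gttttgATTGGtCCACGcttccg
HERPUD1: acgccgATTGGgCCACGttggga
HYOU1: gtactcATTGGaCCACGtcccag
HYOU1: cctgggATTGGaCCACGtcacgg
HYOU1: gccccgTGACGTGGtccaat
TXNDC5: ggcggcTGACGTGGcgctcg
With the 6 bases on each side, the HSPA5 site lies at chr9:125241385-125241415 on the minus strand. The element itself, without these flanks, lies 66 to 48 bases before the start. Also with flanks, the SDF2L1 site lies at chr22:21642108-21642130 on the minus strand and that of HERPUD1 at chr16:56932019-56932041 on the plus strand. The 3 genes with an ERSE-II had log2 changes of 1.02 for SDF2L1, 0.05 for HYOU1 and −0.44 for HERPUD1 in the authors' deposited table. The 7 with an ERSE ranged from −0.37 for XBP1 to 0.48 for CRELD2 in the authors' deposited table, and none of them was called. Carriers of each element therefore lay on both sides of 0, although XBP1 was the only ERSE carrier below it. Promoter elements act on transcription and efficiency is relative to RNA, so these values cannot show whether the elements were in use.

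Among other genes of the pathway, the 4 that were called are transcription factors. Of 38 other ER folding proteins, 0 were called in the authors' deposited table and 4 had an unadjusted p under 0.05, all higher (median log2 change 0.05). Of 32 other degradation genes, 0 were called and 1 was lower at an unadjusted p under 0.05 (median 0.07). Of 35 N-glycosylation genes, 0 were called and 2 were lower at an unadjusted p under 0.05 (median −0.02). Of 36 other genes of the unfolded protein response, 1 rose and 3 fell (median −0.11), and 9 had an unadjusted p under 0.05. Over all rows of the authors' deposited table, 2.20% were called and 10.3% had an unadjusted p under 0.05. Whether any list differed from these shares was not tested.

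The gene that rose was CEBPB, a stress and inflammation transcription factor, by 0.57 (adjusted p = 0.00699, the authors' deposited table). In the authors' deposited table ATF4, which is translated when eIF2 alpha is phosphorylated, fell by 1.73 as a log2 value (adjusted p = 2.0e-14). Its log2 efficiency was −0.98 in knockdown cells in the authors' deposited table and a derived 0.75 in control cells. DDIT3 (CHOP), a target of ATF4, fell by 1.22 (adjusted p = 0.00736, the authors' deposited table), and NFE2L2 (NRF2), the oxidative stress factor that EIF2AK3 can also phosphorylate, fell by 0.61 (adjusted p = 0.0391, the authors' deposited table), a call that did not pass an adjusted p of 0.01. EIF2AK3 itself was not called, as given above.

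Chaperones of neighbouring systems are given for scale. Of 22 collagen folding and processing genes, 1 fell in the authors' deposited table, the collagen chaperone SERPINH1 by 0.45 in log2 units (adjusted p = 0.0134), and 4 had an unadjusted p under 0.05 (list median 0.07). Of 37 cytosolic heat shock proteins and chaperonins, 0 were called and 7 had an unadjusted p under 0.05 (median 0.25, interquartile range 0.65). A log2 change of under 0.5 was listed for 95.5% of the collagen folding genes and 64.9% of the cytosolic chaperones, against 87.5% of the 32 ER genes. That share was 85.8% for the 4 other ER lists together. No test of a difference between these lists was made.

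**Figure D4:**
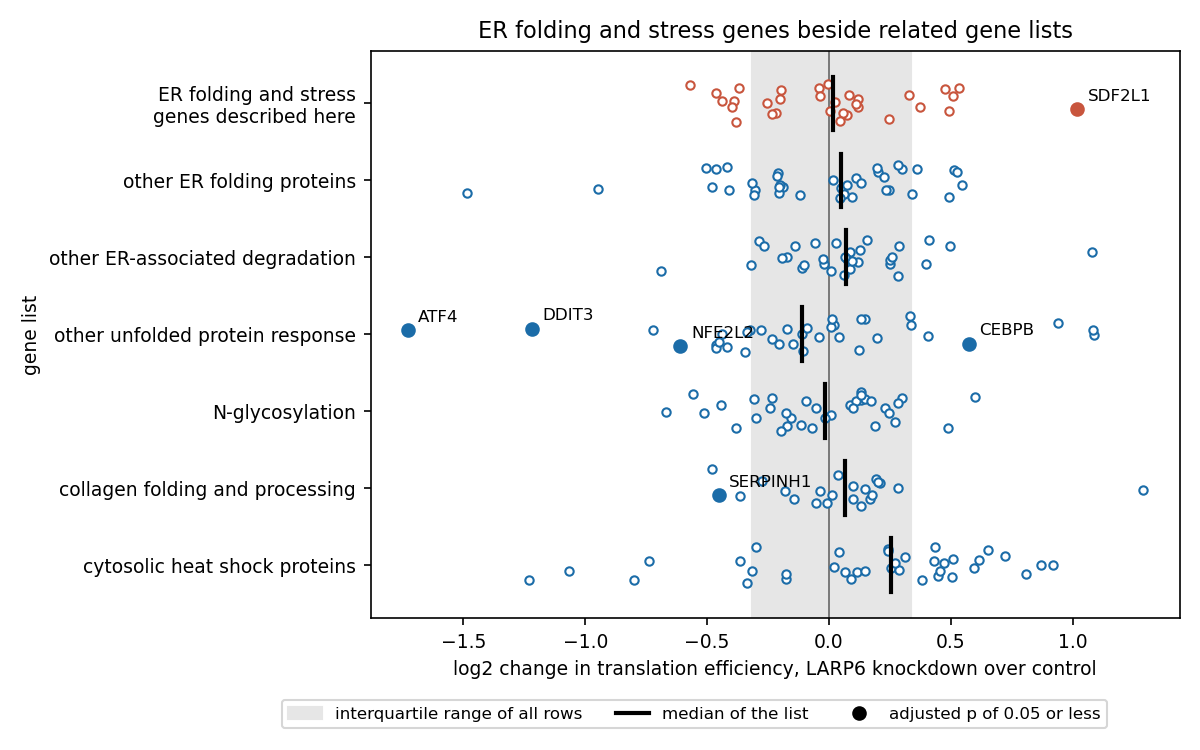
Log2 change in translation efficiency, LARP6 knockdown over control, for the 32 ER folding and stress genes (top) and 6 related gene lists. Points are genes, filled and named where the adjusted p was 0.05 or less, black lines are list medians and the grey band spans the interquartile range of all rows; filled points lie in 3 of the 7 rows of the plot.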

How the data were processed

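Adapters and alignment are named only as tools, cutadapt and Bowtie with hg38 and GRCh38, per the submitters' processing notes, without versions. Per the file headers, the deposited table holds, as log2 values, the change in translation efficiency by each of 2 methods, a final change and the knockdown's efficiency, beside p-values. The final p-value the authors deposited was the larger of both methods' in 12109 rows. No library has a column, so no model was fitted and depth is unknown. The labels do not state separate cultures, so p-values may reflect technical spread. The changes were read as knockdown over control: the variance of the knockdown level was 1.65, that of level minus change 1.62 and of level plus change 2.59. Control levels are knockdown minus the second method's change.

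The last 6 digits of the row identifiers matched 11590 rows, and 31 of the 32 genes (not PDIA4), to GENCODE release 29. Genes overlapping on 1 strand were 1 locus when 28-base windows were compared. Adjustment and window counting were tested on simulated data. Python 3.11.15 with pandas 2.3.3 was used. The genes, lists and tests were chosen with earlier results of these data known. All 32 genes and up to 4 called genes of each other list are named, besides LARP6; P4HB and FKBP14 are on more than 1 list.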

Additional observations from a re-analysis of the deposited data

How the results depend on the processing

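No paired analysis was possible because values of single libraries are not in the table; the count model, its normalizations and filters, and leaving out replicates were not run for the same reason. At an adjusted p of 0.01, 0 of the 32 genes were higher, so the call of SDF2L1 rests on the threshold. At an adjusted p of 0.1, by either method alone and among protein-coding rows, 1 was higher and 0 lower, as in the main comparison. An unadjusted p under 0.05 and leaving out genes with at least 10% shared windows were chosen after seeing the data. The first gave 1 higher and 2 lower among the 32 genes, and 6 higher and 10 lower among the other ER lists, against 1 and 3 as deposited. In those lists 1 was higher under each other setting, and the number lower was 2 at an adjusted p of 0.01, where NFE2L2 was lost, 2 among protein-coding rows, where ATF4 has no matched transcript, 3 by the second method and 4 by the first method and at an adjusted p of 0.1. None of the 32 genes changed sign or side of the threshold by either method alone, nor did the 31 with a match among protein-coding rows. The same held for the 9 called genes of other lists by either method and for the 8 with a match, an alternative also added after seeing the data. The final p-value was the larger of both methods' in every row. Called genes therefore could not lose their call by either method alone, nor at the looser adjusted p of 0.1. Those settings could only have added calls or changed a sign. The median log2 change of the 32 genes was 0.02 as deposited and by either method alone. It was 0.006 for the 31 with a match among protein-coding rows. For the 29 left without the genes of at least 10% shared windows it was −0.003. Protein lengths, retention signals and cysteine motifs were planned and not analysed here.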
